A study of Mus musculus with 12 samples.

Results

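The 46 genes described here act in S phase, when the genome is copied, and in mitosis, when the copies are pulled apart. They were taken as listed cell cycle genes, with the MCM helicase genes left out of the list, and 43 of them were measured among 17853 genes in all. Of the 43, 33 act in mitosis and 10 in S phase, counting Ccne1 and Ccne2 with the latter. Ccnb1, Rrm2 and Pcna have no probe set with a single symbol in the probe annotation used and were not analysed here.

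RNA came from epidermal cells of the back skin of female Gata6-mTomato reporter mice of C57BL6/CBA background, taken in telogen, when hair follicles rest. All 4 sorted populations carried this reporter and none was treated; ages were matched, per the series' design text, but are not stated. Integrin alpha 6 (Itga6) marks basal keratinocytes, CD34 is carried by bulge stem cells of the follicle, and the reporter marks cells in which the transcription factor gene Gata6 is active. The populations were Gata6+Itga6+ cells, Gata6+Itga6- cells, CD34+ cells (Itga6+ and Gata6-), and the remaining basal cells (Itga6+, without Gata6 or CD34), each with 3 biological replicates on 12 Affymetrix exon arrays.

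Cells that divide make many of these transcripts only from S phase to mitosis and destroy them afterwards, so their level in a sorted population rises with the share of cells in the cycle. Genes of S phase are mostly switched on at the G1/S boundary through E2F sites, and genes of mitosis later, through a promoter element called CHR (cell cycle genes homology region) bound by DREAM and MuvB complexes, often beside CCAAT boxes bound by NF-Y. In resting back skin most divisions take place in the interfollicular and upper follicle epidermis, while bulge stem cells are largely quiescent and cells that have left the basal layer have stopped dividing.

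Promoters of 5 members are shown because these members passed the test in the most comparisons, ties being broken by the smallest adjusted p, among the mitotic genes (Top2a, Anln and Mki67, ahead of Ccna2 and Bub1b with as many comparisons as the last 2) and the S-phase genes (Hells and Uhrf1). They are the 250 bases before the transcription start, 5′ to 3′ on the strand of the gene, from RefSeq on assembly GRCm38.p6. Capitals mark matches, on either strand, to the CHR letters TTTGAA, to CCAAT, or to the E2F letters TTTCCCGC, TTTCGCGC, TTTGCCGC and TTTGGCGC. Top2a lies at chr11:99024190-99024439 (minus strand), Anln at chr9:22389207-22389456 (minus strand), Mki67 at chr7:135716380-135716629 (minus strand), Hells at chr19:38930740-38930989 (plus strand), and the first of 2 listed Uhrf1 starts at chr17:56303087-56303336 (plus strand).
Top2a: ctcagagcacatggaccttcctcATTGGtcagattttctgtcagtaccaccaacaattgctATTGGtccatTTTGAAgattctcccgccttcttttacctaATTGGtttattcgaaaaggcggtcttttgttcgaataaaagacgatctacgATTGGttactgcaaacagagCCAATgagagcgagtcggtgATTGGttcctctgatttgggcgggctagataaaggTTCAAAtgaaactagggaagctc
Anln: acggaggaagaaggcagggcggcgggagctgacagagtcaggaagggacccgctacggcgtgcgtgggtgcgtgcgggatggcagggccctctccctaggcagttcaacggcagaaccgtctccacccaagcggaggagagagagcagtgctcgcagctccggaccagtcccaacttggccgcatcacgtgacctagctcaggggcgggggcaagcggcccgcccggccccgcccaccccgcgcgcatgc
Mki67: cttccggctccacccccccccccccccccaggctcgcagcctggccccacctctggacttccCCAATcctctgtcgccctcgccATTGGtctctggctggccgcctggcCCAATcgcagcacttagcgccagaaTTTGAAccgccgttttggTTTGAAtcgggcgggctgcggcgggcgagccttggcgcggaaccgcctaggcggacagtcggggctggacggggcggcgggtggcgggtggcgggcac
Hells: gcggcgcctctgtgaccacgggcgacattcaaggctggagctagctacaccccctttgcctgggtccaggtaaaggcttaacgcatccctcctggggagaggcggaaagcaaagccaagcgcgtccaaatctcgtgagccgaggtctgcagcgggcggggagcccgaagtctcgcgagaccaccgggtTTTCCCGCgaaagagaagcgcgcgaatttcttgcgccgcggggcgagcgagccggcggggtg
Uhrf1: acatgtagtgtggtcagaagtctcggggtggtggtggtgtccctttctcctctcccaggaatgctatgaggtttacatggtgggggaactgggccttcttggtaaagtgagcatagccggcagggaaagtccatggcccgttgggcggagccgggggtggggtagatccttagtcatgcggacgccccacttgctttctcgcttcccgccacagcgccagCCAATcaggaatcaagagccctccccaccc

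The Top2a stretch holds 2 CHR matches, 17 and 173 bases before the start, and 6 CCAAT matches. That of Mki67 holds 2 CHR matches, 92 and 110 bases before the start, and 3 CCAAT matches. Anln has no match in the stretch shown, and its 2 CHR matches lie in the 50 bases after the start. Hells has TTTCCCGC 54 bases before the start, and Uhrf1 has a CCAAT box 25 bases before its first start.

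Over windows of 300 bases, 250 before to 50 after each start, TTTGAA was present in 24 of 30 promoters of the measured mitotic members (80.0%), 1 of 10 of the measured S-phase members (10.0%), and 17.9% of all 32851 promoters. CCAAT was present in 73.3% of the mitotic promoters, 4 of 10 S-phase promoters and 37.4% of all promoters. An E2F match was present in 3.33% of the mitotic promoters, 3 of 10 S-phase promoters and 2.26% of all, the S-phase matches being in Cdc6, Hells and the second Uhrf1 start. Among measured members, 66.7% of promoters of those called in at least 1 comparison and 60.0% of promoters of those called in none held TTTGAA. A match describes letters in the window and is not a measured site, and the table held 40 of the 46 listed genes.

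Levels are log2 of the deposited intensity plus 1, taken as the median over a gene's probe sets, and are compared only between arrays for the same gene. A level of 2.46 was used as that of silent genes, which 95% of 1144 olfactory and vomeronasal receptor genes do not exceed. In the sort check, Cd34 had a level of 7.95 in CD34+ cells and 1.66 to 1.96 elsewhere, and Gata6 had 4.39 and 5.84 in the reporter populations, compared with 2.73 in remaining basal and 2.84 in CD34+ cells. Arrays were not equally bright: the upper quartile of intensity ran from 15.7 to 16.6 in Gata6+Itga6+, 13.8 to 17.6 in CD34+, 12.1 to 16.0 in remaining basal and 13.2 to 15.5 in Gata6+Itga6- cells. Basal keratinocyte markers were called higher in both Gata6+Itga6+ and remaining basal cells than in Gata6+Itga6- cells, 7 of 7 each, and 7 of 8 differentiation markers were called higher in Gata6+Itga6- than in CD34+ cells. No T cell, Langerhans and myeloid, or endothelial marker (8, 10 and 6 genes) was called in any of the 6 comparisons by limma, and Cd3d, Cd207 and Pecam1 lay under the level of silent genes in all populations. Other markers of these lists did not: 3 of 8 T cell markers were over it in at least 1 population (Cd3e and Cd3g in Gata6+Itga6-, at 2.73 and 2.48, and Thy1 in CD34+ and remaining basal cells, at 2.54 and 3.88). So were 2 of 10 Langerhans and myeloid markers (H2-Aa at 3.38 in Gata6+Itga6-, and H2-Ab1 at 2.56 to 3.01 in all but CD34+ cells) and 0 of 6 endothelial markers. Of 8 melanocyte markers at most 2 were called in a comparison, and of 8 fibroblast markers 1 was called lower in each population than in CD34+ cells. Of 8 bulge markers 6 to 8 were called lower in each population than in CD34+ cells, and 6 of 7 upper follicle markers higher in both reporter populations. The part of any of these markers in the results of the cell cycle genes was not tested. Precision is limited by the number of arrays, and RNA of sorted bulk cells cannot tell a larger share of dividing cells from more RNA per cell.

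The cell cycle genes were higher in Gata6+Itga6+ and remaining basal cells than in CD34+ and Gata6+Itga6- cells. By the median change of the members, the order of the first pair held with quantile normalization but not with each array's upper quartile subtracted. The median of the 43 levels, taken on each array, was 2.48 ± 0.15 (SD, n = 3) in Gata6+Itga6+, 2.20 ± 0.25 in remaining basal, 1.71 ± 0.076 in CD34+ and 1.68 ± 0.023 in Gata6+Itga6- cells. The mean was highest in Gata6+Itga6+ cells for 33 members and in remaining basal cells for 10, and for none in the other populations. Many are dim on these arrays, as are many of all genes. Over the level of silent genes lay 20 members in Gata6+Itga6+ cells, 16 in remaining basal cells and 4 in each of the other populations. Of all genes, 7794 lay over it in Gata6+Itga6+, 7364 in remaining basal, 7715 in CD34+ and 7288 in Gata6+Itga6- cells. Under it in all populations lay 21 of the 43 members and 8745 of the 17853 genes.

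**Figure D1:**
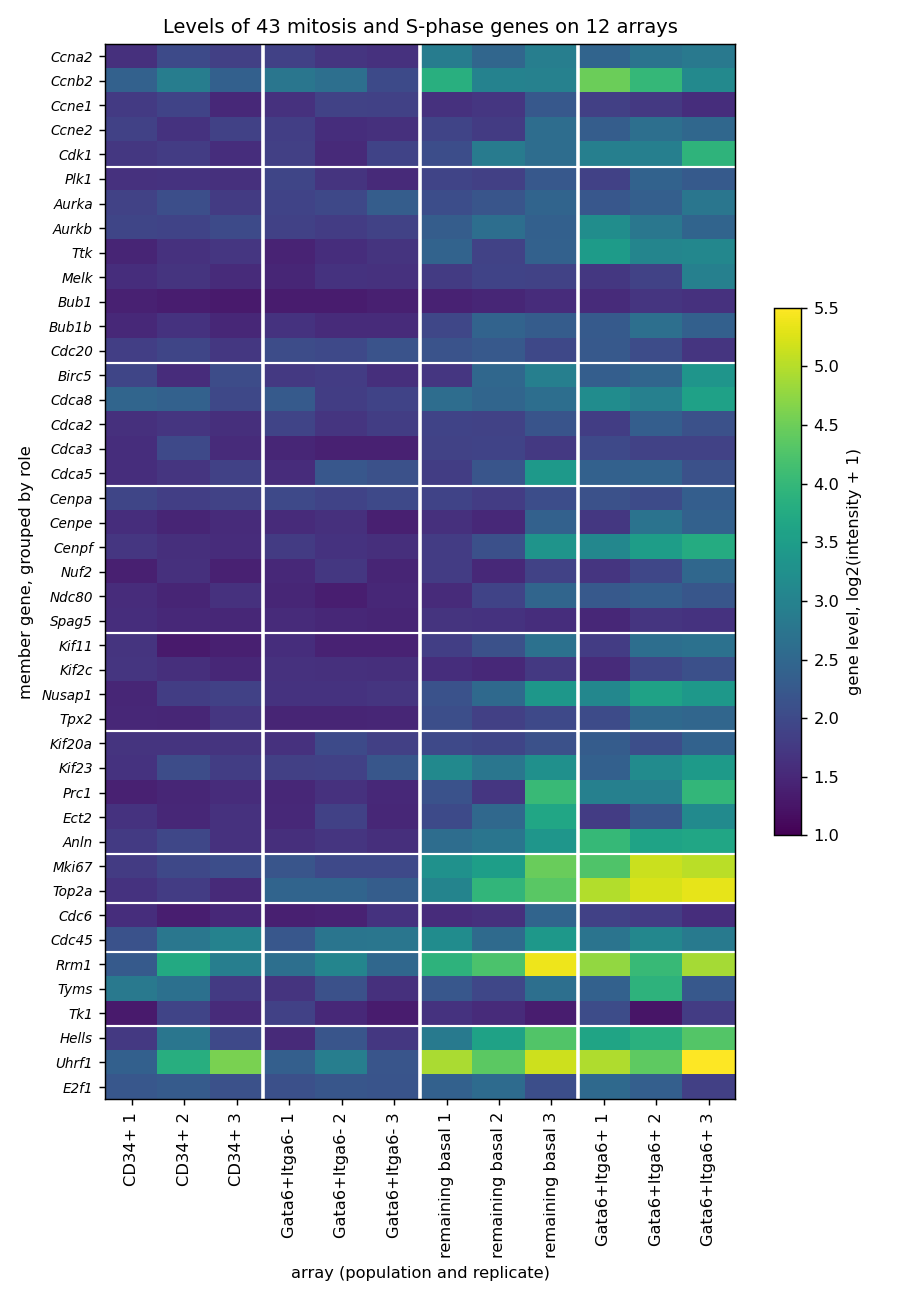
Level of the 43 measured members (rows, grouped by role and parted by white lines) on each of the 12 arrays (columns), as log2(intensity + 1). The 3 Gata6+Itga6+ arrays and remaining basal replicate 3 hold most of the bright cells of the map, Top2a reaching 5.34 and Uhrf1 5.63 on Gata6+Itga6+ replicate 3.

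Between Gata6+Itga6+ and CD34+ cells, 15 of 43 members (34.9%) were called higher by limma at a Benjamini-Hochberg adjusted p under 0.05, and none lower. Of all genes, 2.4% were called higher and 2.18% lower in this comparison. The replicates lay wholly above those of CD34+ cells in 33 members, as they did in 11% of all genes, and 42 of 43 changes were above 0. The median change of the members was 0.74 on the log2 scale and that of all genes 0.016. The called members were Ccna2, Cdk1, Aurkb, Ttk, Bub1b, Cdca8, Cenpf, Nusap1, Tpx2, Kif20a, Kif23, Anln, Mki67, Top2a and Hells. Without CD34+ replicate 1 the count was 10, and with a gene's level taken as the mean of its probe sets it was 28.

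Between remaining basal and CD34+ cells, which share the same CD34+ arrays, 6 members (14%) were called higher and none lower, against 1.67% and 3.32% of all genes. These were Ccna2, Bub1b, Kif23, Anln, Mki67 and Top2a, and all 6 are mitotic. The median change was 0.42 for the members and -0.015 for all genes, and 26 members had replicates wholly above those of CD34+ cells (8.02% of all genes). The count was 4 without CD34+ replicate 1, without CD34+ replicate 3 or without remaining basal replicate 3, 12 with each array's upper quartile subtracted, and 16 with the mean of probe sets.

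Among basal cells, Gata6+Itga6+ against remaining basal, 2 members (4.65%) were called higher, Ttk and Top2a, and none lower, while 1.07% of all genes were called higher and 0.286% lower. Replicates did not overlap, with Gata6+Itga6+ higher, in 5 members and in 10.4% of all genes. The median change was 0.25 for the members and 0.039 for all genes, and 33 of 43 changes were above 0. With each array's upper quartile subtracted, which moved the median of all genes by -0.25, the median was -0.0063 and 20 of 43 changes were above 0. With quantile normalization the median was 0.23 and 31 of 43 changes were above 0. The median of the members less that of all genes was 0.21 in the main setting, 0.24 with quantile normalization and 0.21 with the upper quartile subtracted. The count of 2 fell to 0 without remaining basal replicate 2, Gata6+Itga6+ replicate 1 or Gata6+Itga6+ replicate 3, and was 7 without remaining basal replicate 3. It was 1 without Gata6+Itga6+ replicate 2 or without any one array of the CD34+ or Gata6+Itga6- populations. The 7 were Ttk, Cenpf, Nusap1, Prc1, Anln, Mki67 and Top2a.

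**Figure D2:**
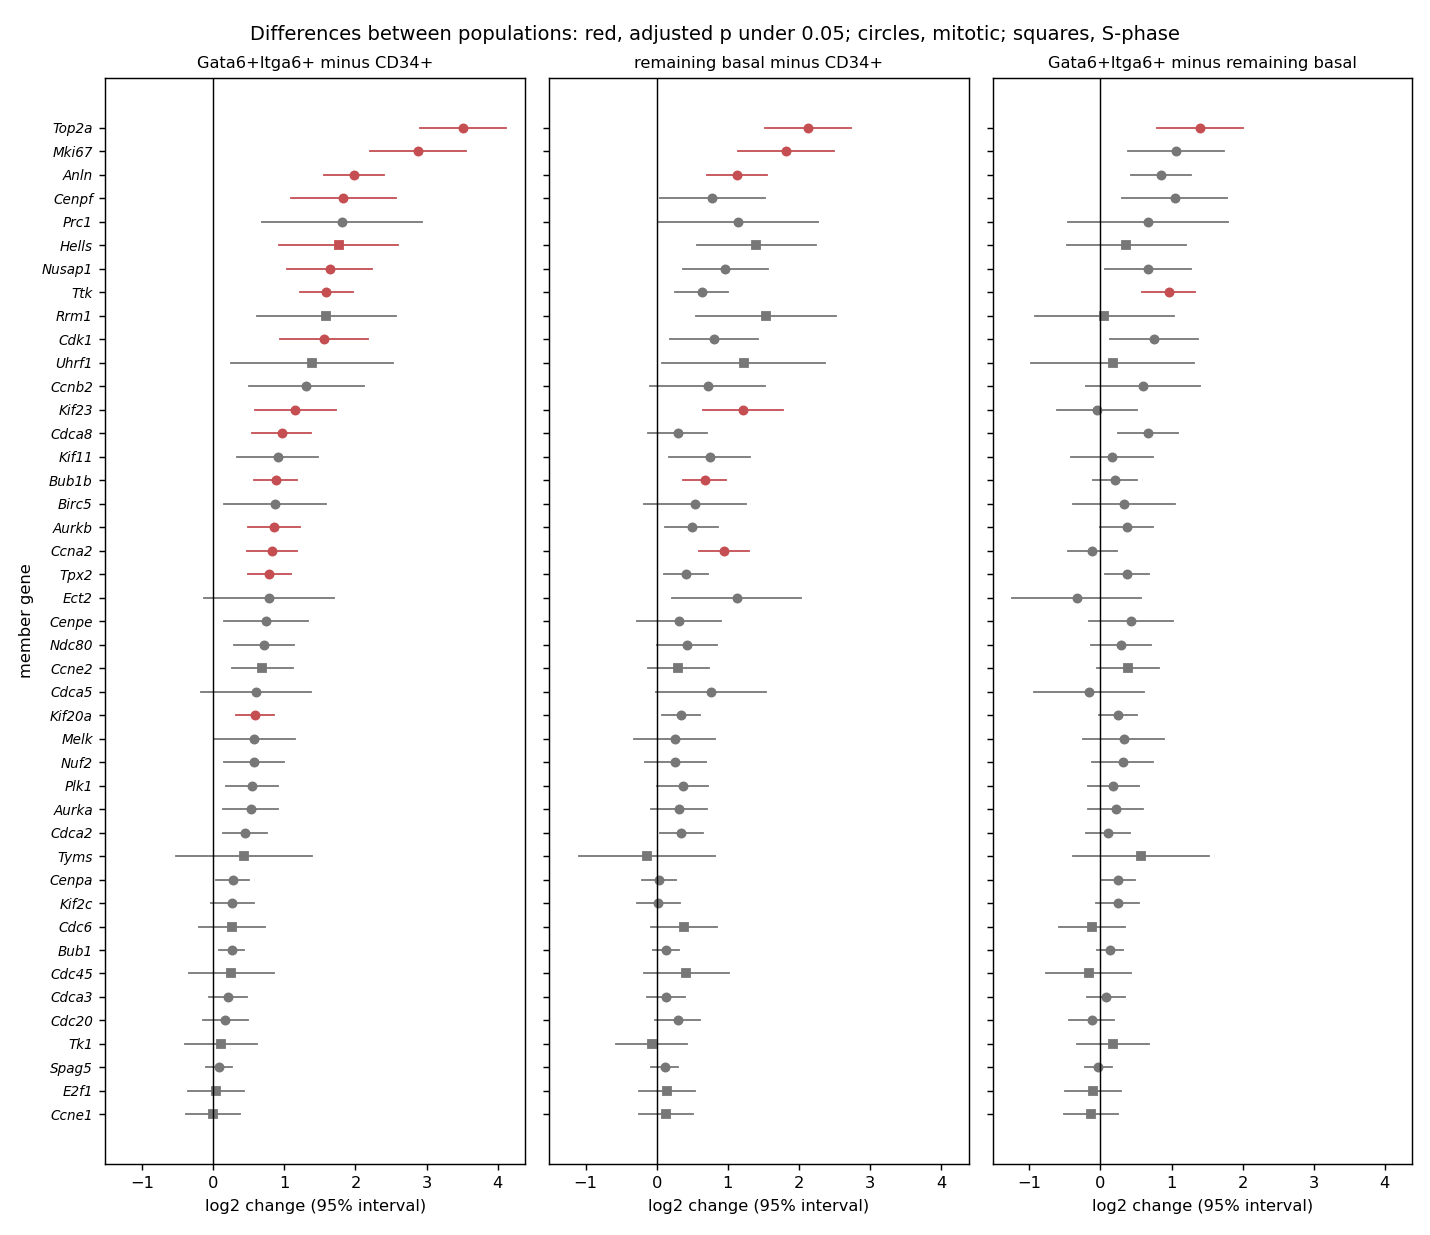
Difference between populations of each measured member, log2 scale, with its 95% interval from limma, for Gata6+Itga6+ minus CD34+ (left), remaining basal minus CD34+ (middle) and Gata6+Itga6+ minus remaining basal cells (right); red marks an adjusted p under 0.05, circles mitotic and squares S-phase genes. Called members number 15, 6 and 2 from left to right, and Top2a has the largest change in each panel.

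Within cells with the Gata6 reporter, 15 members (34.9%) were called higher in the Itga6+ than in the Itga6- population and none lower, against 2.01% and 1.17% of all genes. The median change was 0.81 for the members and 0.031 for all genes, and 29 members had non-overlapping replicates in this direction (12.8% of all genes). Ndc80 and Uhrf1 were called here and Kif20a and Kif23 were not, in contrast to the list against CD34+ cells; these lists share the Gata6+Itga6+ arrays. The count was 9 without Gata6+Itga6- replicate 3, 10 without Gata6+Itga6- replicate 1 and 29 with the mean of probe sets.

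Remaining basal cells exceeded Gata6+Itga6- cells in 9 called members (20.9%), with none lower, against 2.15% and 2.96% of all genes. These were Ccna2, Bub1b, Kif23, Anln, Mki67 and Top2a of the mitotic genes and Rrm1, Hells and Uhrf1 of the S-phase genes. The median change was 0.51 for the members and -0.0017 for all genes, and 25 members did not overlap (10% of all genes). Without Gata6+Itga6- replicate 3 the count was 3. It was 4 without Gata6+Itga6- replicate 1 or without remaining basal replicate 3, 6 without Gata6+Itga6- replicate 2 or without remaining basal replicate 2, 5 with only the arrays compared, and 16 with the mean of probe sets.

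Gata6+Itga6- and CD34+ cells, the populations in which the members were lowest, gave no call in limma in either direction, although 3.22% of all genes were called higher and 4.74% lower between them. At an unadjusted p under 0.05, 1 member was higher (Top2a, change 0.74) and 1 lower (Cdca3, change -0.27). The median change was -0.01 for the members and -0.017 for all genes, 20 of 43 changes were above 0, and 3 members had Gata6+Itga6- replicates wholly above (9.8% of all genes). The 95% intervals of single members had a median half-width of 0.43 and reached from -2.24 to 1.35. A member was called higher here with the mean of probe sets (1, Cdc20), with the brightest probe set (2, Cenpf and Top2a), with the upper quartile subtracted (1, Top2a), with only the arrays compared (1, Top2a) and without remaining basal replicate 1 (1, Top2a). Without CD34+ replicate 1, Uhrf1 was called lower in Gata6+Itga6- cells.

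Top2a encodes topoisomerase II alpha, which untangles sister chromatids before they part. Gata6+Itga6+ cells had levels of 4.97, 5.23 and 5.34, remaining basal cells 3.03, 3.97 and 4.36, Gata6+Itga6- cells 2.45, 2.44 and 2.33, and CD34+ cells 1.65, 1.80 and 1.54. The 4 populations did not overlap, and both lower ones lay under the level of silent genes. These levels are medians over 37 probe sets, and single probe sets lay over that level in both lower populations. The highest had a mean of 6.16 in Gata6+Itga6- and 3.47 in CD34+ cells. Gata6+Itga6+ exceeded remaining basal cells by 1.40 (95% interval 0.79 to 2.00; limma adjusted p = 0.0372), a 2.63-fold difference in intensity plus 1. Leaving out 1 array ended this call for 10 of the 12 arrays, as did quantile normalization, the array row block, the brightest probe set and only the arrays compared. The excess of remaining basal over CD34+ cells, 2.12 (limma adjusted p = 0.00114), was called without every array in turn and under all 11 other settings.

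Mki67 encodes Ki-67, which coats mitotic chromosomes and is the standard mark of cycling cells. It had levels of 4.27, 5.15 and 5.04 in Gata6+Itga6+, 3.28, 3.52 and 4.47 in remaining basal, 2.18, 2.00 and 2.00 in Gata6+Itga6- and 1.77, 1.97 and 2.06 in CD34+ cells. The basal populations without CD34 were clear of the other populations, but remaining basal replicate 3 lay within the range of Gata6+Itga6+ cells. That difference, 1.06 (95% interval 0.38 to 1.74), did not pass the test (limma adjusted p = 0.172). Against CD34+ cells Mki67 was higher by 2.88 in Gata6+Itga6+ (limma adjusted p = 0.000344) and by 1.82 in remaining basal cells (adjusted p = 0.00567).

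Anln encodes anillin, a scaffold of the contractile ring that pinches the daughter cells apart. It reached 4.02, 3.61 and 3.66 in Gata6+Itga6+ and 2.61, 2.75 and 3.37 in remaining basal cells. CD34+ cells had 1.76, 1.96 and 1.64, and Gata6+Itga6- cells had 1.60, 1.69 and 1.60. All 3 Gata6+Itga6+ arrays lay above all 3 remaining basal arrays, but the difference of 0.85 (95% interval 0.43 to 1.28) missed the threshold (limma adjusted p = 0.0711). Anln exceeded its CD34+ level at least 2.47-fold in Gata6+Itga6+ and at least 1.37-fold in remaining basal cells, both taken against the level of silent genes.

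Ttk encodes the spindle checkpoint kinase Mps1. It measured 3.47, 3.05 and 3.08 in Gata6+Itga6+, 2.44, 1.89 and 2.39 in remaining basal, 1.45, 1.59 and 1.67 in Gata6+Itga6- and 1.47, 1.64 and 1.72 in CD34+ cells. Only the Gata6+Itga6+ arrays were over the level of silent genes. The difference from remaining basal cells was 0.96 (95% interval 0.59 to 1.33; limma adjusted p = 0.0224), and from CD34+ cells 1.59 (adjusted p = 0.000344). The former call ended without remaining basal replicate 2, Gata6+Itga6+ replicate 1 or Gata6+Itga6+ replicate 3. That call was also lost with the upper quartile subtracted and with only the arrays compared, and its difference reversed with the brightest probe set. The brightest probe set of Ttk was near 8.17 in Gata6+Itga6+ and 8.19 in CD34+ cells, and 11 of the 24 Ttk probe sets were higher by over 1.

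**Figure D3:**
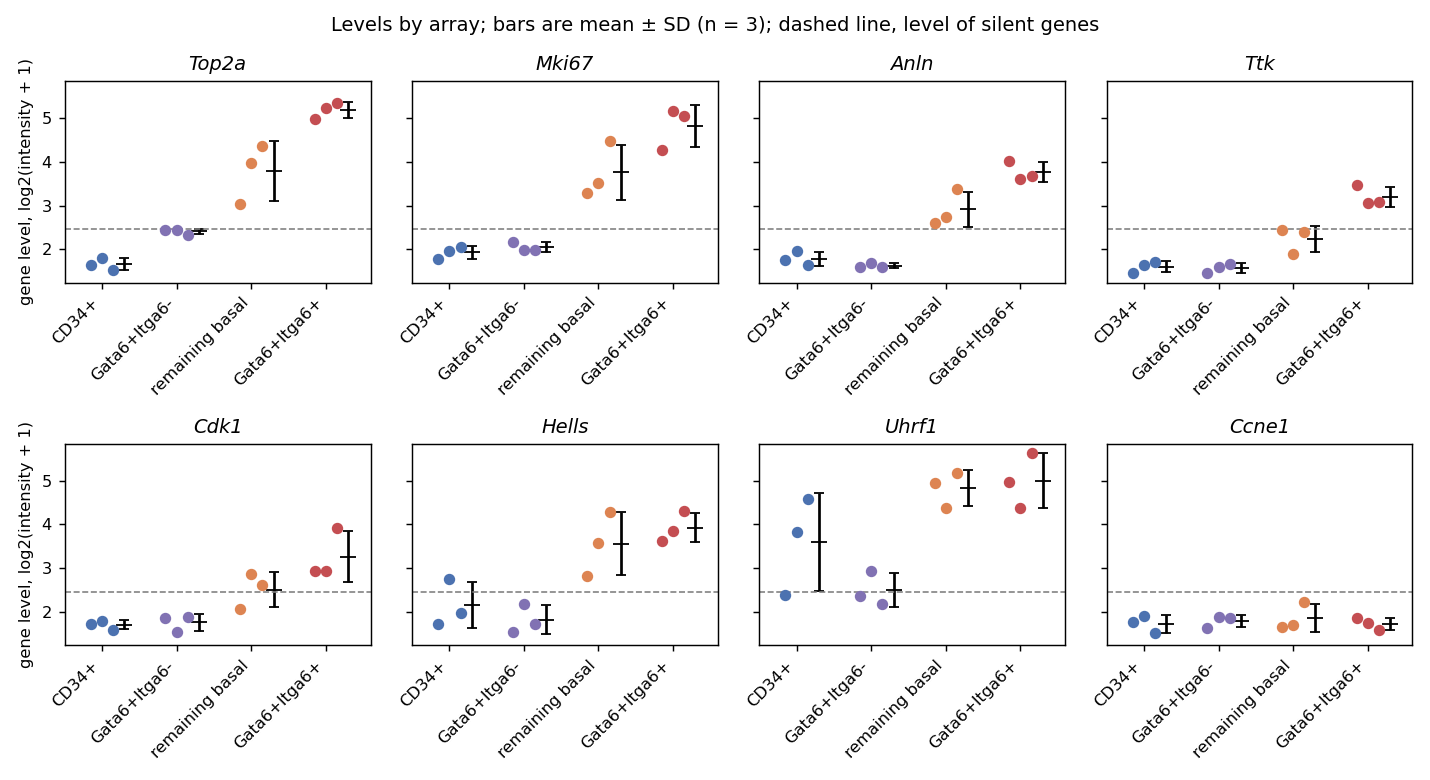
Level of 8 members on each array (points, log2(intensity + 1)) in the 4 populations, with the mean and SD of 3 arrays beside them and the level of silent genes as a dashed line. Top2a parts all 4 populations, Mki67 and Uhrf1 of Gata6+Itga6+ and remaining basal cells overlap, and Ccne1 lies under the dashed line throughout.

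Among cyclins and their kinase, Ccna2 (cyclin A2, active from S phase to early mitosis) had overlapping levels in remaining basal cells, at 2.90, 2.49 and 2.92, and in Gata6+Itga6+ cells, at 2.44, 2.71 and 2.83. CD34+ cells had 1.62, 2.01 and 1.85 and Gata6+Itga6- cells 1.86, 1.69 and 1.64. The Gata6+Itga6+ minus remaining basal difference was -0.11 (95% interval -0.46 to 0.24), and both populations were called higher than the other 2 by limma. The Gata6+Itga6+ calls of Ccna2 ended without Gata6+Itga6+ replicate 3, and without CD34+ replicate 1 or Gata6+Itga6- replicate 3 respectively. The first of these calls was also lost with only the arrays compared. The second was lost with the brightest probe set and with the upper quartile subtracted. Both remaining basal calls of Ccna2 were lost with the brightest probe set. Cdk1, the kinase that drives entry into mitosis, had 2.94, 2.94 and 3.93 in Gata6+Itga6+, 2.06, 2.87 and 2.62 in remaining basal, 1.86, 1.54 and 1.90 in Gata6+Itga6- and 1.73, 1.80 and 1.60 in CD34+ cells. It was called higher in Gata6+Itga6+ than in CD34+ cells (1.56, limma adjusted p = 0.00964) and Gata6+Itga6- cells (1.50). The latter call was lost without any 1 Gata6+Itga6- array and with only the arrays compared. Cdk1 was not called in remaining basal cells against CD34+ or Gata6+Itga6- cells (0.81 and 0.75).

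Ccne1 and Ccne2 encode the E cyclins of the G1/S boundary. Ccne1 lay between 1.52 and 2.24 on all 12 arrays, under the level of silent genes, and its 6 comparisons gave changes of -0.14 to 0.13. Ccne2 was 2.32, 2.64 and 2.50 in Gata6+Itga6+ and 1.92, 1.79 and 2.60 in remaining basal cells, against 1.87, 1.66 and 1.86 in CD34+ and 1.84, 1.59 and 1.63 in Gata6+Itga6- cells. Its Gata6+Itga6+ arrays lay above those of CD34+ and Gata6+Itga6- cells, but neither difference (0.69 and 0.80) passed the test (limma adjusted p = 0.0862 and 0.0589). Ccnb2, a mitotic cyclin, was likewise separated from both and not called (1.31 and 1.39; adjusted p = 0.0807 and 0.0798).

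Of the 8 mitotic kinases, checkpoint genes and Cdc20, 3 were called higher in Gata6+Itga6+ than in CD34+ cells (2.4% of all genes). The median change of the group was 0.56. Bub1b, which encodes the checkpoint protein BubR1, measured 2.28, 2.65 and 2.38 in Gata6+Itga6+ and 1.96, 2.43 and 2.31 in remaining basal cells. CD34+ cells had 1.52, 1.66 and 1.50 and Gata6+Itga6- cells 1.66, 1.55 and 1.55. It was called in both former populations against both latter ones (changes of 0.64 to 0.88), although all 4 means lay under the level of silent genes, so no fold is given. The remaining basal calls of Bub1b ended without remaining basal replicate 2 or 3, and without CD34+ replicate 1 or 3 or any Gata6+Itga6- array respectively. All 4 calls of Bub1b were lost with the brightest probe set. Those against Gata6+Itga6- cells were also lost with the upper quartile subtracted, and those of remaining basal cells with only the arrays compared. Aurkb, the kinase of the chromosomal passenger complex, measured 3.21, 2.78 and 2.45 in Gata6+Itga6+, 2.33, 2.62 and 2.39 in remaining basal, 1.95, 1.90 and 2.02 in CD34+ and 1.87, 1.80 and 1.88 in Gata6+Itga6- cells. It was called in Gata6+Itga6+ cells against CD34+ (0.86; limma adjusted p = 0.0149) and Gata6+Itga6- cells (0.96; adjusted p = 0.0123), and the first call ended without CD34+ replicate 1 or 2. Both Aurkb calls were lost with the upper quartile subtracted and with only the arrays compared. With the brightest probe set the first change reversed and the second call was lost. The other 5 of this group, Plk1, Aurka, Melk, Bub1 and Cdc20, were called in no comparison.

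Cdca8 encodes borealin, a passenger complex subunit that brings Aurkb to centromeres. Its levels of 3.19, 2.96 and 3.58 in Gata6+Itga6+ cells were clear of 2.61, 2.48 and 2.63 in remaining basal, 2.47, 2.39 and 1.98 in CD34+ and 2.28, 1.82 and 1.91 in Gata6+Itga6- cells. It was called higher against CD34+ (0.96) and Gata6+Itga6- cells (1.24) and not against remaining basal cells (0.67; limma adjusted p = 0.161). The call against CD34+ cells ended without CD34+ replicate 3 or Gata6+Itga6+ replicate 3. That call was also lost with the brightest probe set, with the upper quartile subtracted and with only the arrays compared. Birc5 (survivin, the same complex), Cdca2, Cdca3 and Cdca5 were called in no comparison.

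Cenpf, a kinetochore protein of late G2 and mitosis, measured 3.08, 3.51 and 3.78 in Gata6+Itga6+, 1.80, 2.10 and 3.33 in remaining basal, 1.71, 1.60 and 1.57 in CD34+ and 1.78, 1.66 and 1.60 in Gata6+Itga6- cells. Remaining basal replicate 3 alone of its group reached the Gata6+Itga6+ range. Gata6+Itga6+ cells exceeded CD34+ cells at least 1.99-fold (limma adjusted p = 0.0107), and 18 of its 24 probe sets were higher by over 1. The call against Gata6+Itga6- cells ended without any 1 array of that population or Gata6+Itga6+ replicate 2 or 3. Of the 5 other kinetochore genes, Ndc80 was called in Gata6+Itga6+ against Gata6+Itga6- cells (0.81; adjusted p = 0.0488). That call was lost without any 1 of 10 arrays, under the replicate block, the array row block and 3 further settings. All Ndc80 means lay under the level of silent genes. Cenpa, Cenpe, Nuf2 and Spag5 were called in no comparison.

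Nusap1, which bundles spindle microtubules around chromosomes, measured 3.09, 3.58 and 3.40 in Gata6+Itga6+, 2.14, 2.53 and 3.39 in remaining basal, 1.67, 1.67 and 1.70 in Gata6+Itga6- and 1.48, 1.82 and 1.87 in CD34+ cells. Tpx2, which activates aurora A on the spindle, had 2.03, 2.53 and 2.49, then 2.07, 1.85 and 1.99, 1.47, 1.47 and 1.48, and 1.50, 1.48 and 1.71 in the same order. Both were called higher in Gata6+Itga6+ than in CD34+ cells (1.64 and 0.79) and Gata6+Itga6- cells (1.68 and 0.88), with limma adjusted p of 0.00638 to 0.00898. In remaining basal cells all 3 arrays of both genes also lay above the CD34+ and Gata6+Itga6- arrays, without passing the test. All Tpx2 means lay under the level of silent genes. Both Nusap1 calls were lost with the brightest probe set. The Tpx2 call against CD34+ cells was lost with only the arrays compared, and that against Gata6+Itga6- cells with the upper quartile subtracted. The spindle motors Kif11 and Kif2c were called in no comparison.

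The 5 central spindle and cytokinesis genes had a median change of 1.16 for Gata6+Itga6+ against CD34+ cells and of 1.13 for remaining basal against CD34+ cells. Kif23, a central spindle motor, measured 2.38, 3.17 and 3.45 in Gata6+Itga6+ and 3.13, 2.76 and 3.26 in remaining basal cells, with a difference of -0.05 (95% interval -0.62 to 0.51). Its 3 calls each ended without any 1 of 4 to 7 arrays, and the call of Kif20a, another motor of this group, without any 1 of 5. All 3 Kif23 calls were lost with the brightest probe set. The Kif20a call was lost with the upper quartile subtracted and with only the arrays compared. All Kif20a means lay under the level of silent genes. Prc1, which cross-links central spindle microtubules, and Ect2, which acts in cytokinesis, varied widely among remaining basal replicates, at 2.13, 1.71 and 4.05 and at 2.00, 2.52 and 3.66, and were called in no comparison. Remaining basal replicate 3 was the highest array of its population in 31 of the 43 members, while replicates 1 and 2 were highest in 5 and 7. Over all genes its median level was 2.23, against 2.18 and 2.17 on replicates 1 and 2. On replicate 3, 7678 genes lay over the level of silent genes, against 7085 and 7017 on replicates 1 and 2. The count of 31 was not set against such a count over all genes, and what sets this array apart was not tested.

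Of the 10 S-phase members, 1 was called in Gata6+Itga6+ against CD34+ cells (2.4% of all genes), 2 against Gata6+Itga6- cells (2.01%), and 3 in remaining basal against Gata6+Itga6- cells (2.15%). Hells, a chromatin remodeller needed for DNA methylation, measured 3.63, 3.86 and 4.30 in Gata6+Itga6+, 2.83, 3.59 and 4.28 in remaining basal, 1.54, 2.19 and 1.73 in Gata6+Itga6- and 1.74, 2.76 and 1.99 in CD34+ cells. It was called in 3 comparisons, and Gata6+Itga6+ cells exceeded CD34+ and Gata6+Itga6- cells at least 2.76-fold (limma adjusted p = 0.0244 and 0.0147). The call against CD34+ cells ended without CD34+ replicate 1 or 3 or Gata6+Itga6+ replicate 2 or 3 (adjusted p up to 0.0973). That against Gata6+Itga6- cells ended without Gata6+Itga6+ replicate 3 or Gata6+Itga6- replicate 1 or 3. The third, remaining basal against Gata6+Itga6- cells, ended without replicate 2 or 3 of the former or 1 or 3 of the latter, and with only the arrays compared. Uhrf1, which directs Dnmt1 to newly copied DNA, measured 4.97, 4.38 and 5.63, then 4.93, 4.36 and 5.16, 2.37, 2.93 and 2.19, and 2.38, 3.83 and 4.59 in the same order. Its CD34+ replicates spread over more than any other population, from near the Gata6+Itga6- level to the Gata6+Itga6+ range. It was called in Gata6+Itga6+ (2.50) and remaining basal (2.32) against Gata6+Itga6- cells, and not against CD34+ cells (1.39 and 1.22). Both calls ended without Gata6+Itga6- replicate 1 or 3, and also without Gata6+Itga6+ replicate 1 or 3 (adjusted p up to 0.113) or remaining basal replicate 1 or 3 (up to 0.0965). With the brightest probe set the first change was -0.13 and the second was not called (0.21).

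Rrm1, the large subunit of ribonucleotide reductase, was 4.78, 4.03 and 4.90 in Gata6+Itga6+, 3.92, 4.23 and 5.39 in remaining basal, 2.64, 3.04 and 2.50 in Gata6+Itga6- and 2.27, 3.73 and 2.93 in CD34+ cells. The arrays of the former 2 populations lay above all of the latter, and 1 of the 4 differences was called, remaining basal against Gata6+Itga6- cells (1.78; limma adjusted p = 0.0458). That call ended under the replicate block, the array row block and 3 further settings, and without any 1 of 9 arrays (adjusted p up to 0.149). E2f1, the transcription factor of G1/S entry, measured 2.54, 2.37 and 1.86 in Gata6+Itga6+ and 2.40, 2.58 and 2.08 in remaining basal cells, against 2.22, 2.30 and 2.12 in CD34+ and 2.09, 2.20 and 2.16 in Gata6+Itga6- cells. These ranges overlapped, and its 6 changes lay between -0.10 and 0.20. With a level read from its brightest probe set, limma called E2f1 higher in Gata6+Itga6+ (2.63) and remaining basal (2.26) than in Gata6+Itga6- cells. Cdc6 and Cdc45, which load and activate the replicative helicase, and Tyms and Tk1, which supply thymidylate, were called in no comparison.

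The median change of Gata6+Itga6+ against CD34+ cells was 0.79 for the 33 mitotic and 0.35 for the 10 S-phase genes, and against Gata6+Itga6- cells 0.85 and 0.55. Against remaining basal cells it was 0.29 and 0.11, with 27 of 33 and 6 of 10 changes above 0. The differences between these medians were not tested. Hells, Uhrf1 and Rrm1 differed between these populations by 0.36, 0.17 and 0.06, and all 3 were over the level of silent genes in both.

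The other genes of the same processes, listed apart from the members, were counted in the same way. Of 47 further mitosis genes, limma called 14 (29.8%) higher in Gata6+Itga6+ than in CD34+ cells (2.4% of all genes), 13 (27.7%) than in Gata6+Itga6- cells (2.01% of all) and 1 (2.13%) than in remaining basal cells (1.07% of all). In remaining basal cells 2 (4.26%) were called against CD34+ cells (1.67% of all), and 1 (2.13%) against Gata6+Itga6- cells, about the share among all genes (2.15%). Of 32 further replication genes, 6 were called in each of these basal populations against CD34+ cells, and 9 (Gata6+Itga6+) and 10 (remaining basal) against Gata6+Itga6- cells, with 0 between the basal populations without CD34. No gene of either list was called lower, and none was called between Gata6+Itga6- and CD34+ cells.

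Among these, the condensin subunit gene Ncaph was called in Gata6+Itga6+ cells against all 3 other populations, with a mean of 2.77 ± 0.20 against 1.91 ± 0.17 in remaining basal cells (0.87; limma adjusted p = 0.0123). Lmnb1 (lamin B1), Aspm (a spindle pole protein) and Ncapd2 (condensin) were called in Gata6+Itga6+ cells against CD34+ and Gata6+Itga6- cells, and Lmnb1 and Ncapd2 also in remaining basal against CD34+ cells. Clspn (claspin, a fork protein), Pole (the leading strand polymerase) and Chaf1a (a histone chaperone of the fork) were called in both Gata6+Itga6+ and remaining basal cells against both other populations. All means of Pole and Aspm lay under the level of silent genes. Rfc4, a clamp loader subunit, was called only in remaining basal cells, higher by 0.79 against CD34+ and 0.89 against Gata6+Itga6- cells. Its Gata6+Itga6+ minus remaining basal change was -0.60 and not called (adjusted p = 0.0756).

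Of 17 regulators of the E2F, Rb, DREAM and FoxM1 system, 2 were called higher in Gata6+Itga6+ than in CD34+ cells (2.4% of all genes). They were Tfdp2, an E2F partner (1.15), and Foxm1, an activator of mitotic genes (0.83, limma adjusted p = 0.0217). Tfdp2 was also called in Gata6+Itga6+ against Gata6+Itga6- cells (1.15), where 2.01% of all genes were called higher. Foxm1 lay under the level of silent genes in all populations. E2f4, the E2F of the DREAM complex, was called in remaining basal against CD34+ cells (0.91), where 1.67% of all genes were called higher. E2f8, an E2F repressor, was called in remaining basal against Gata6+Itga6- cells (0.75), where 2.15% of all genes were. No regulator was called lower in a comparison.

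**Figure D4:**
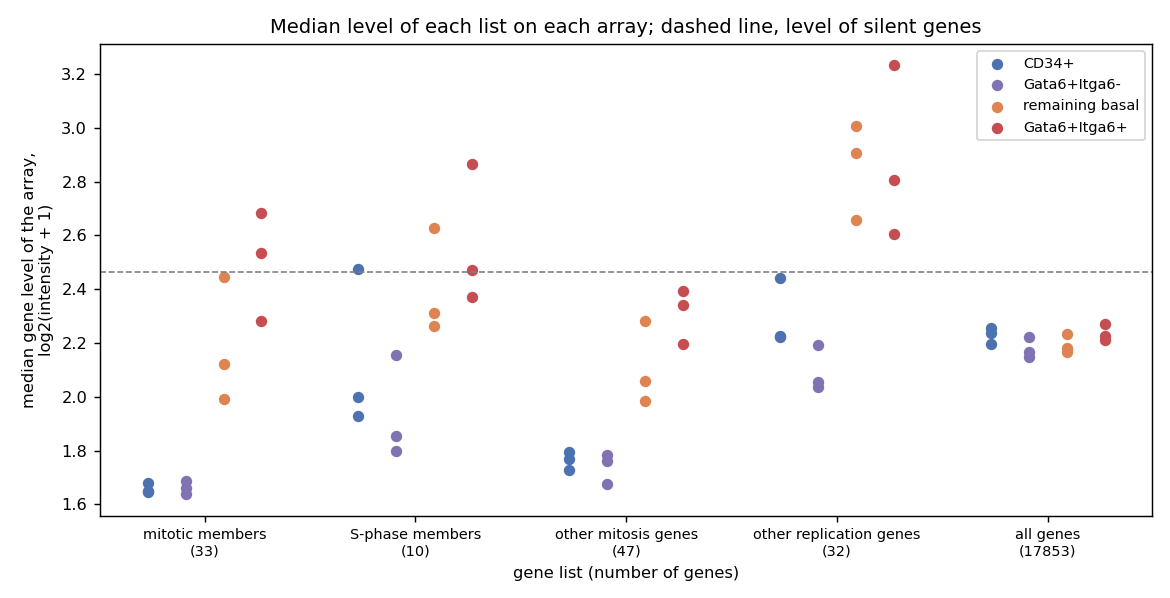
Median gene level on each array (points, log2(intensity + 1)) for the mitotic and S-phase members, the further mitosis and replication genes and all genes, with the level of silent genes as a dashed line. Mitotic genes lie at 1.65 to 1.68 on the CD34+ arrays and 2.28 to 2.68 on the Gata6+Itga6+ arrays, while the median of all genes stays within 2.15 to 2.27.

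The exon probe sets behind a gene's median did not all respond. Of 37 Top2a probe sets, 35 were higher by over 1 in Gata6+Itga6+ than in CD34+ cells, as were 17 of 20 for Mki67 and 22 of 28 for Anln. Some members that the median left uncalled had a few bright probe sets that differed widely, and the 4 described next were picked with their values known. The brightest probe set of Birc5 had 7.14 ± 0.45 in Gata6+Itga6+ and 2.33 ± 1.27 in CD34+ cells, that of Cdc20 6.23 ± 0.52 and 2.39 ± 0.62, and that of Bub1 5.08 ± 1.44 and 1.82 ± 0.47. With a gene's level read from its brightest probe set, limma called these 3 (adjusted p = 0.00787, 0.00625 and 0.0117). Plk1 had 5.77 ± 2.97 against 1.47 ± 0.15 and was not called (adjusted p = 0.0812). The opposite also occurred: for Ttk, Aurkb and Kif20a the brightest probe set was no higher in Gata6+Itga6+ than in CD34+ cells (changes of -0.021, -0.28 and -0.20). The brightest probe set of Cenpf was called lower in remaining basal than in Gata6+Itga6- cells (-2.23; limma adjusted p = 0.00202).

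**Figure D5:**
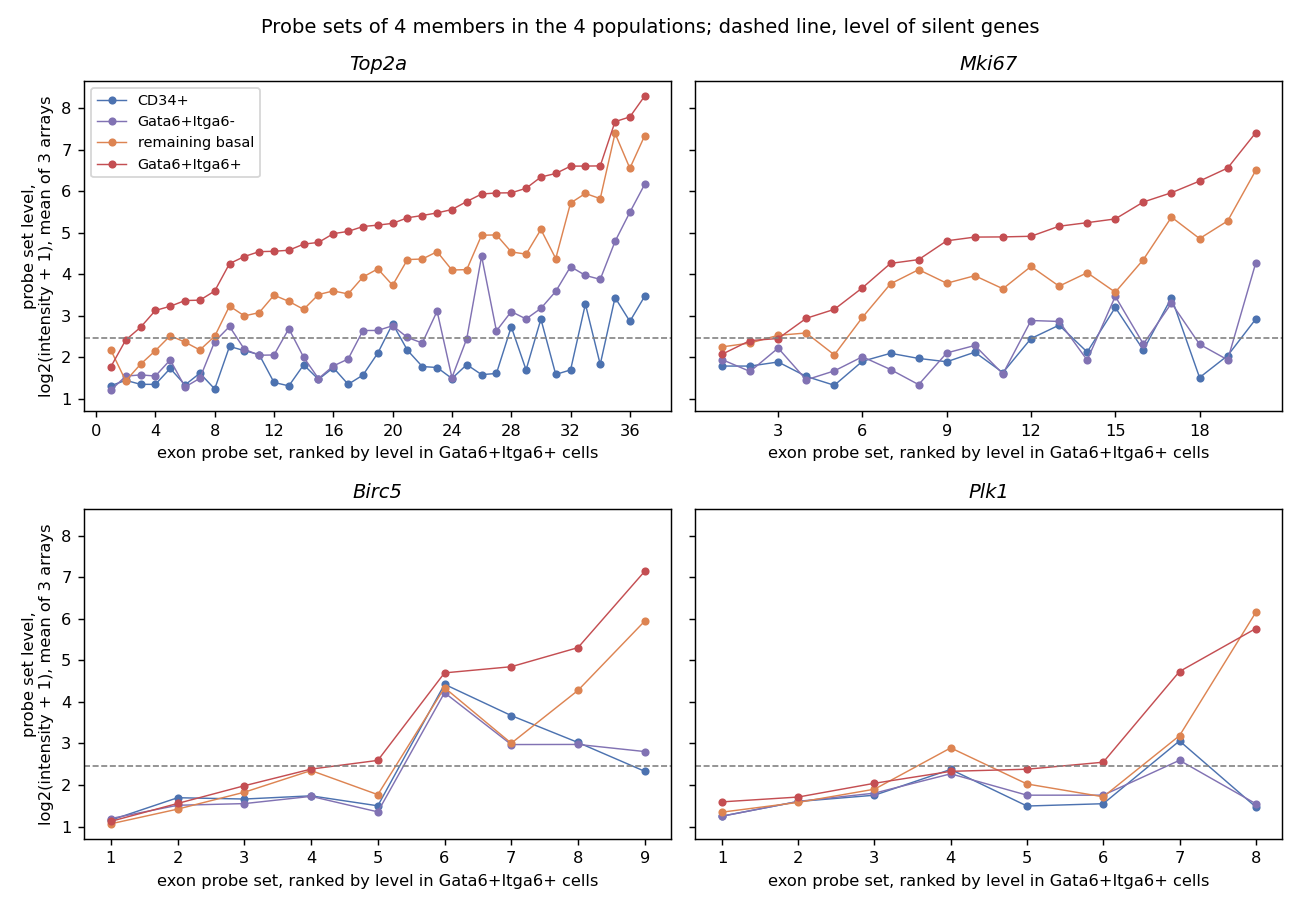
Level of each exon probe set, log2(intensity + 1), mean of 3 arrays, in the 4 populations, with probe sets of a gene ranked by their level in Gata6+Itga6+ cells and the level of silent genes as a dashed line. Nearly the whole Top2a and Mki67 curves part between populations (35 of 37 and 17 of 20 probe sets over 1 higher than in CD34+ cells), whereas Birc5 and Plk1 part at a few bright probe sets.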

How the data were processed

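The authors deposited intensities for 235932 exon probe sets on each of 12 arrays. They used RMA (robust multi-array average) and Affymetrix Power Tools, and build mm9 is named, per the submitters' processing notes. Versions are not given in the sources used here. Their scale is not stated and was taken as linear from the values (array medians 3.97 to 4.57, maxima 2172 to 2953), so every log2 level and fold rests on that reading. RMA also reduces shifts shared by most genes of an array.

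Symbols came from the probe annotation, and 221205 probe sets with 1 symbol were used (1684 had several and 13043 none). RefSeq names of assembly GRCm38.p6 served to update them: 15377 were current, 2489 updated and 42 kept. A gene's level is the median over its probe sets of log2(intensity + 1). limma 3.58.1 (R 4.3.3) estimated a mean for each population from all 12 arrays together (residual degrees of freedom 8, prior 2.12), p-values were adjusted by Benjamini-Hochberg over 17853 genes, and a gene was called at an adjusted p under 0.05. Folds are ratios of intensity plus 1. Where the lower mean lay under 2.46 they are lower bounds against that level, and none is given where both did. The procedure was tested on simulated data.

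The members, the role groups and the other lists were chosen with earlier results of these data known, so no list is tested as a whole. Per-array values are given for the 12 members with the smallest adjusted p in any comparison and for Ccne1, Ccne2 and E2f1, and at most 4 genes of each other list are named, by smallest adjusted p. Values of Hells, Uhrf1, Rrm1, Kif23, Prc1, Ect2, Ccnb2, Ndc80, Kif20a, Cdca3, Birc5, Cdc20, Bub1 and Plk1 were added after they were seen. Promoters follow the rule of most comparisons called, then smallest adjusted p, leaving out chromosome 18. Replicate numbers come from the labels, which call them biological replicates. In no pair of populations did the deviations of all same-numbered arrays correlate above 0.1, so the numbers were not taken as pairs. Alternatives covered the offset, the summary over probe sets, scaling between arrays, dim genes, the arrays fitted, variance moderation, blocks by replicate number and by the array row in the labels, and leaving out each array.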

Additional observations from a re-analysis of the deposited data

How the results depend on the processing

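No member was called lower in a comparison under quantile normalization or upper quartile subtraction; with the brightest probe set 1 was (Cenpf), and without CD34+ replicate 1, 1 (Uhrf1). Of the 47 calls of a member in a comparison, 22 ended without at least 1 array and 32 were lost or reversed under at least 1 other setting. Numbers follow the order Gata6+Itga6+ against CD34+, against remaining basal, remaining basal against CD34+, Gata6+Itga6+ against Gata6+Itga6-, remaining basal against Gata6+Itga6-, and Gata6+Itga6- against CD34+; counts were 15, 2, 6, 15, 9 and 0. With the mean of probe sets they were 28, 4, 16, 29, 16 and 1. Gata6+Itga6+ against remaining basal gave 0 with the brightest probe set or only the arrays compared, and 1 with quantile normalization, upper quartile subtraction or the array row block. Upper quartile subtraction gave 12 for remaining basal against CD34+. Only the arrays compared gave 5 for remaining basal against Gata6+Itga6- and 1 for Gata6+Itga6- against CD34+, for which the brightest probe set gave 2 and upper quartile subtraction 1. Leaving out 1 array gave 10 to 19, 0 to 7, 4 to 9, 9 to 18, 3 to 11 and 0 to 1. Same-numbered arrays correlated at -0.144 to 0.279 over the 6 pairs of populations. Between Gata6+Itga6+ and remaining basal cells every array correlated best with its own number (0.052 to 0.102, others at most 0.017), a hint from the data and not from the design. Between Gata6+Itga6+ and CD34+ cells the same was seen by array row (0.091 to 0.106, others at most -0.020). Between Gata6+Itga6+ and Gata6+Itga6- cells it was not (-0.070 to -0.026, others up to 0.074). An array row block kept all calls of Gata6+Itga6+ against CD34+ cells and added Ccnb2. The fit with a replicate block called 16, 2, 8, 15, 9 and 0.

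Median member changes were 0.74, 0.25, 0.42, 0.81, 0.51 and -0.01. Those against CD34+ or Gata6+Itga6- cells, in the same order and without the last, were 1.00, 0.57, 1.13 and 0.72 without the offset, and 0.43, 0.24, 0.47 and 0.33 with an offset of 4. All but the last were 1.32, 0.44, 0.89, 0.99 and 0.68 with the brightest probe set, and 1.35, 0.48, 0.87, 1.45 and 0.90 without dim genes. Upper quartile subtraction gave -0.0063 for Gata6+Itga6+ against remaining basal, 0.59 for remaining basal against CD34+ and 0.60 for Gata6+Itga6+ against Gata6+Itga6-, and moved the median of all genes by -0.25, 0.17 and -0.21. Leaving out 1 array gave 0.70 to 0.81, 0.13 to 0.34, 0.28 to 0.49, 0.73 to 0.93, 0.34 to 0.57 and -0.025 to 0.021. With the brightest probe set the change reversed for Aurkb (-0.28), Ttk (-0.021) and Kif20a (-0.20) in Gata6+Itga6+ against CD34+, Ttk (-0.22) against remaining basal, and Ttk (-0.15), Cenpf (-1.12) and Uhrf1 (-0.13) against Gata6+Itga6-; the cause was not tested.

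Higher calls were 78.9% of all calls between Gata6+Itga6+ and remaining basal cells, 56.3% with quantile normalization and 55.8% with the upper quartile subtracted. They were 33.5%, 47.2% and 48.7% for remaining basal against CD34+ cells, and 63.3%, 52.1% and 49.1% for Gata6+Itga6+ against Gata6+Itga6- cells. For Gata6+Itga6- against CD34+ cells they were 40.4%, and 51.3% with the upper quartile subtracted. Under the level of silent genes in every population lay 21 of 43 members and 8745 of 17853 genes. Of these members, Bub1b, Tpx2, Kif20a and Ndc80 were called in at least 1 comparison. The part of dimness in which members were called was not tested.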
